A study of Mus musculus with 8 samples.

Results

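The genes described here build hair. They comprise 19 keratins of the hair shaft, inner root sheath and companion layer, chosen by name, and every gene of the count tables whose mouse symbol begins with Krtap, the keratin-associated proteins, of which the tables held 57. That made 76 genes among 41388 gene identifiers. Their RNA was read in ear skin of adult wild-type (WT) C57Bl/6 mice, with 4 libraries from mice given 1 nmol topical MC903 daily for 12 days and 4 libraries from mice given ethanol, the vehicle. MC903 is calcipotriol, a vitamin D analog whose repeated use on mouse skin produces an itchy dermatitis. The design counts 4 mice per group, and the libraries hold bulk tissue of the ear, so fewer cells of a type and less RNA per cell cannot be told apart.

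In a growing follicle, hair (trichocyte) keratins of type I and type II pair into filaments, and keratin-associated proteins surround and cross-link these filaments in the shaft. The high-sulfur and ultra-high-sulfur proteins are rich in cysteine, and a further class is rich in glycine and tyrosine. The inner root sheath, which moulds the growing shaft, makes keratins of its own, and the companion layer lies between it and the outer root sheath.

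The libraries held 12310466 to 15575518 counts in the MC903 group and 14223908 to 16837221 in the vehicle group, so that 3 counts, taken as the detection floor of a library, stood for 0.178 to 0.244 CPM, the count scaled to a common library total. Levels below are CPM adjusted by TMM factors. One library of each group stood apart over these genes. Vehicle replicate 4 had the highest level of the 4 vehicle libraries in 71 of the 76 members and held over 50% of the vehicle counts in 65, and MC903 replicate 4 had the lowest level of its group in 60, ties included. Vehicle replicate 2 carried salivary transcripts, a list of 11 markers whose summed level was 373300 CPM there, against 209 to 276 CPM in the MC903 libraries and 198 to 464 CPM in the other vehicle libraries, and its TMM factor was 0.775, against 0.953 to 1.13 elsewhere. Defining follicle markers were partly at the floor: Shh, the hair matrix signal, had 1 count over the MC903 libraries and 1 over the vehicle libraries.

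Most hair keratins and keratin-associated proteins were lower in MC903 skin, whereas Krt36, Krt84 and Krt75 were higher. Of the 76 members, 37 had enough counts to be tested with edgeR at an adjusted p under 0.05, and 39 did not. Of those tested, 30 fell, against 20.2% of the 16105 genes tested, and 3 rose, against 21.3%. A member that is low in both groups cannot pass the filter, so the counts over tested members describe only those that passed. Some tested members could pass only through the vehicle libraries, such as Krt31, with 8, 0, 7 and 1 MC903 counts and 15, 45, 14 and 142 vehicle counts. Such entry favours falls among the tested members, here and in the classes below, so their counts and median are no independent support for a fall. Without the filter all 76 entered the test, and 58 fell (12.3% of 27903 genes) and 4 rose (12.3%). The median log2 fold change, MC903 over vehicle, was -2.81 over the tested members, against -0.03 over all genes tested. Over all 76 it was -3.18 without the filter. With the members at 0 in a whole group set to their bound at 3 counts over that group, it was -3.13. That median left out 1 member, Krtap20-2, which had 0 MC903 counts and 3 vehicle counts.

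Vehicle replicate 4 moved these counts. Without it, 38 members were tested, of which 24 fell (18.2% of 16331 genes) and 4 rose (18.8%). The median log2 fold change of these 38 was -1.72. Without both the filter and that library, 42 members fell (11.6%) and 5 rose (11.3%), and all 42 were among the 58. By level alone, 36 members had all 4 MC903 values below all 4 vehicle values, as 12.4% of all genes with a count did. A further 4 members had all MC903 values above (12.8% of genes), and in 36 the groups overlapped.

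**Figure D1:**
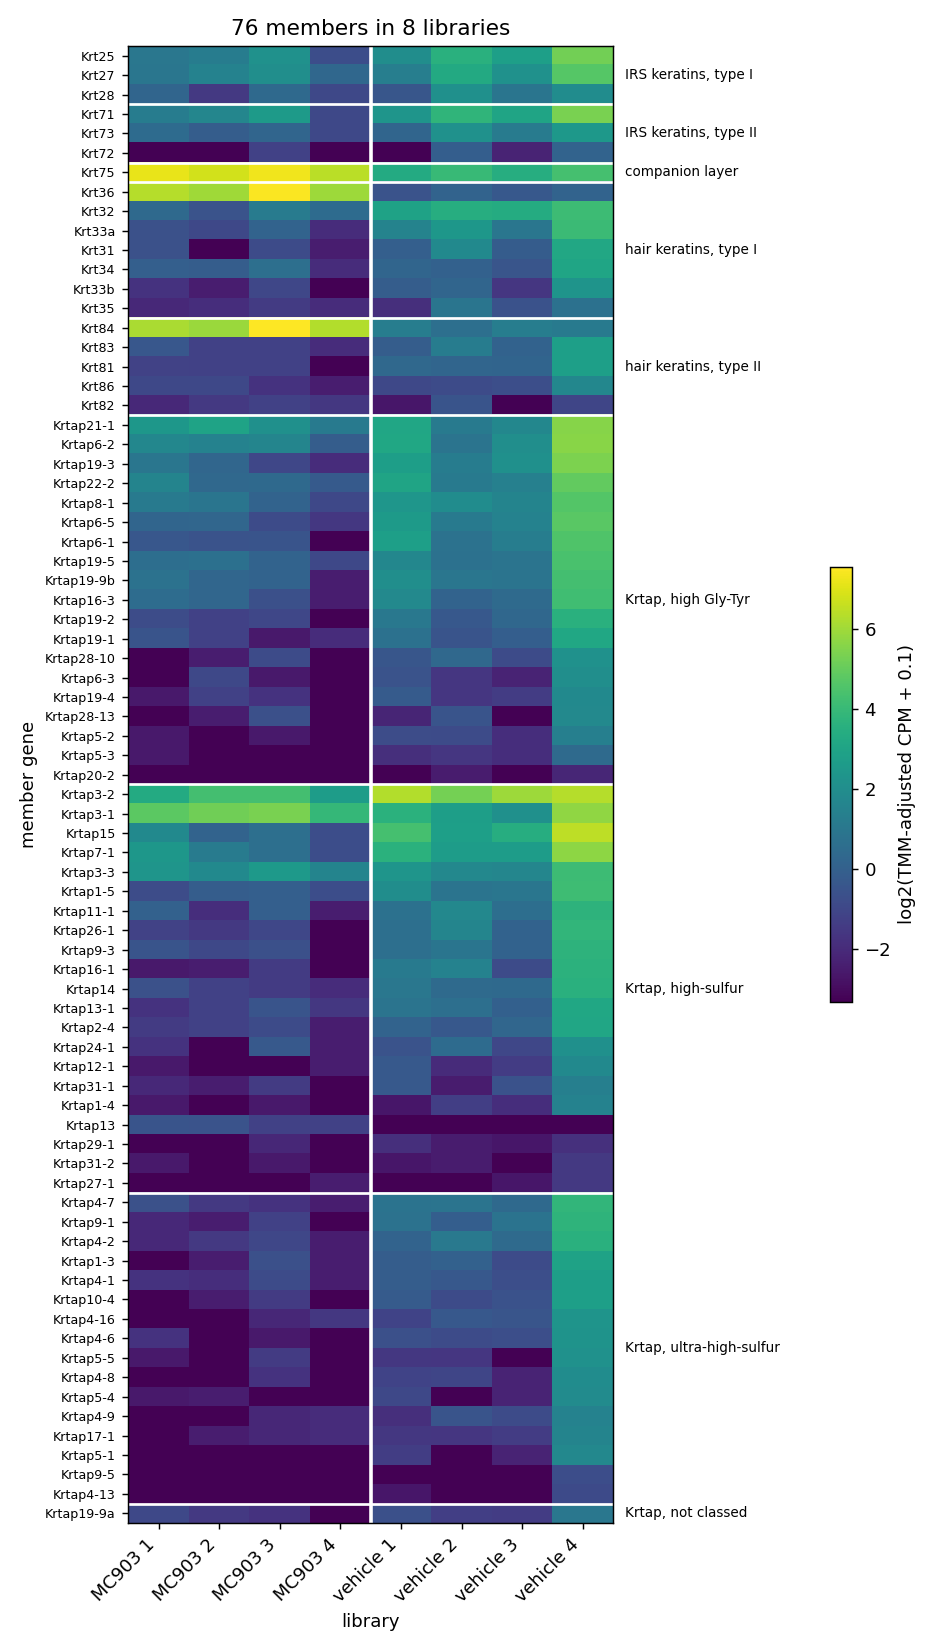
Levels of the 76 members (rows, by class and by mean level within it) in the 4 MC903 and 4 vehicle libraries (columns), as log2 of TMM-adjusted CPM plus 0.1; IRS is the inner root sheath. Krt75, Krt36 and Krt84 are bright in all MC903 libraries, and the vehicle replicate 4 column is the brightest vehicle column in 71 rows.

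The stretches just upstream of the genes are shown because neighbouring genes of the same families moved in opposite directions. Each line gives the 120 bases before the start of the RefSeq transcript (RefSeq, GRCm38.p6), read 5′ to 3′ on the gene's strand, with TATAAA, the TATA box word, in capitals. The first lines are the members that rose and Krtap3-1, and the rest are members that fell.
Krt36 (chr11:100105627-100105746, minus strand): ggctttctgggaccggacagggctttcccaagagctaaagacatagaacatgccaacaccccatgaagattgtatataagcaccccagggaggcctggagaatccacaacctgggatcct
Krt84 (chr15:101532821-101532940, minus strand): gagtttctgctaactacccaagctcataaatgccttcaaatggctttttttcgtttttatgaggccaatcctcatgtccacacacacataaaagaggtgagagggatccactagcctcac
Krt75 (chr15:101573905-101574024, minus strand): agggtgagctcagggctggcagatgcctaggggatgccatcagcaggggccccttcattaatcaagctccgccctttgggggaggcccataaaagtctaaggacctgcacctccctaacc
Krtap3-1 (chr11:99566631-99566750, minus strand): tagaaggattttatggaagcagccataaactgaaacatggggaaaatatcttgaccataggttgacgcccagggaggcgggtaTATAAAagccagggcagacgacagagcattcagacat
Krtap3-2 (chr11:99556854-99556973, minus strand): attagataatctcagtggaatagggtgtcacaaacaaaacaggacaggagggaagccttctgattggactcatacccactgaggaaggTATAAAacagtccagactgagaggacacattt
Krt32 (chr11:100088270-100088389, minus strand): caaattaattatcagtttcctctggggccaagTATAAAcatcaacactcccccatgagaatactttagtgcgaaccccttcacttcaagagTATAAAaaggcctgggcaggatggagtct
Krt71 (chr15:101743098-101743217, minus strand): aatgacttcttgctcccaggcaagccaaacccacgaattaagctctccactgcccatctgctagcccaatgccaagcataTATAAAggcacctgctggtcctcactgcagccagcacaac
Krtap26-1 (chr16:88647797-88647916, minus strand): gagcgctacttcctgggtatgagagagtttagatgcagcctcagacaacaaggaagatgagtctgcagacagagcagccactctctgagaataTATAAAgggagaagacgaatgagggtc
Krtap4-7 (chr11:99644090-99644209, minus strand): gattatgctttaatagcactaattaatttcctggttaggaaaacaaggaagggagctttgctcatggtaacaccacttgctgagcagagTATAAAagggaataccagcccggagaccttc
Krtap19-3 (chr16:88878039-88878158, minus strand): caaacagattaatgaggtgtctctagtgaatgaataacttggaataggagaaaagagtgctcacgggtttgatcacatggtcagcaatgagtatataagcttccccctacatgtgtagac

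Promoters from 250 bases before to 50 after the start were given for 65 of the 76 members. TATAAA on either strand was in 81.5% of them and in 14.2% of all 27025 promoters. On the gene's own strand and starting 16 to 50 bases before the transcript start, it was in 42 members (64.6%) and in 2.64% of all promoters. Among the members it stood there in 34 of 51 Krtap promoters and 8 of 14 keratin promoters. By direction without the filter, this exact word was in 1 of the 4 that rose, Krtap13, and 33 of the 48 that fell and had a promoter. The printed stretches also hold near spellings that were not counted. These are tatataag in Krt36, which rose, and Krtap19-3, which fell, and cataaaag in Krt84 and Krt75, which rose. The 2 shares therefore do not compare the presence of a TATA box. Krt32 carried TATAAA at 88 and 29 bases before the start, Krtap3-2 at 32, Krtap3-1 at 37 and Krt71 at 40. CTTTGA, the TCF/LEF core word, was searched on both strands and was in 30.8% of member promoters and 16.2% of all. The vitamin D response element of direct repeats spaced by 3 bases was in 0 of the 65 and in 0.0333% of all promoters. With matches in only 9 of 27025 promoters, 0 among 65 carries no information, and control by the vitamin D receptor was not tested. All these motif counts are letter matches in a fixed window, and members of a family share ancestry, so the matches are not independent.

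Krt36, a type I hair-type keratin known also from tongue papillae, showed the largest rise of the tested members. It lies at chr11:100102007-100105626 (mm10). Its level was 81.0, 63.0, 178 and 62.1 CPM in the MC903 libraries, against 0.589, 0.999, 0.686 and 0.999 CPM in the vehicle libraries. Every MC903 library stood far above every vehicle library, and MC903 replicate 3 was the highest. The log2 fold change was 6.88 ± 0.43 (SE, adjusted p = 1.01e-06, edgeR), and 6.996 ± 0.50 without vehicle replicate 4. Its summed counts, 5405 against 51, gave a ratio of 124 per TMM-adjusted library total (95% exact interval 94.2 to 167, counting error only).

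Krt84, a type II hair-type keratin also known from the tongue (chr15:101525026-101532820), had 71.5, 59.0, 185 and 76.9 CPM in the MC903 libraries, against 2.36, 1.46, 2.34 and 2.06 CPM in the vehicle libraries. The groups did not overlap, and MC903 replicate 3 was again the highest. Its log2 fold change was 5.56 ± 0.40 (adjusted p = 2.52e-06). Per kilobase of gene length, the count of Krt36 was 1.74, 1.64, 1.48 and 1.24 times that of Krt84 in the MC903 libraries, and 0.385, 1.05, 0.450 and 0.746 times in the vehicle libraries. Krt36 was thus the more abundant of the pair in every MC903 library, and in vehicle libraries this held in replicate 2 alone.

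Krt75, the type II keratin of the companion layer (chr15:101563345-101573904), was at 145, 110, 157 and 86.1 CPM in the MC903 libraries, against 9.78, 15.9, 10.9 and 20.1 CPM in the vehicle libraries. All MC903 values were higher, and the log2 fold change was 3.14 ± 0.26 (adjusted p = 6.60e-06). Reads of Krt36, Krt84 and Krt75 were little exposed to confusion with relatives. Of the 50-base windows of their transcripts, the length of a read, 0.432%, 0% and 2.49% occurred in another gene.

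**Figure D2:**
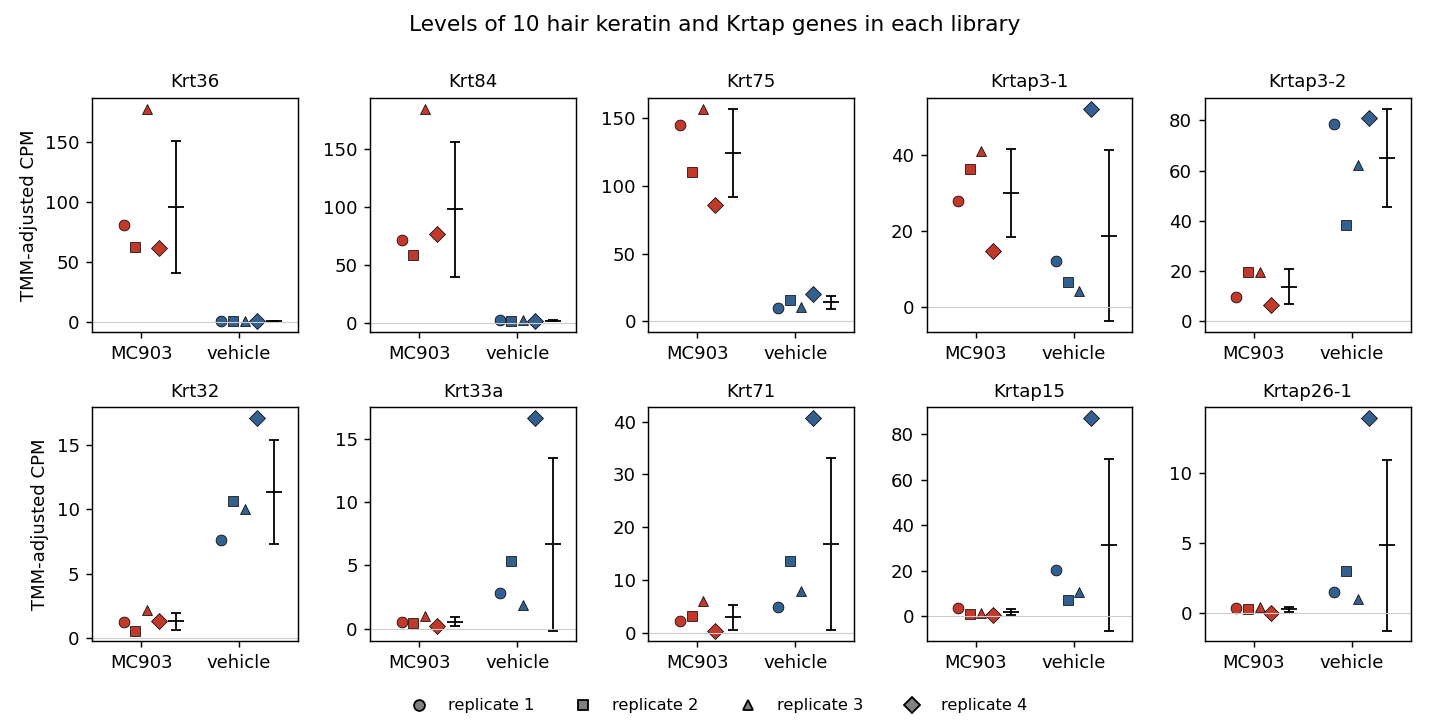
TMM-adjusted CPM of 10 members in each library (points, with the marker giving the replicate), with the mean and SD of 4 libraries beside them; each panel has its own scale, and an SD bar can reach below 0. Krt36, Krt84 and Krt75 are higher in all MC903 libraries, Krtap3-2, Krt32, Krt33a, Krtap15 and Krtap26-1 are lower in all, and Krtap3-1 and Krt71 overlap between the groups.

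The other 10 hair keratins went the opposite way or did not pass the test. Krt32, a cuticle keratin of type I (chr11:100080848-100088226), was at 1.21, 0.583, 2.19 and 1.30 CPM in the MC903 libraries, against 7.60, 10.6, 9.998 and 17.1 CPM in the vehicle libraries. The groups stood apart, and vehicle replicate 4 was the highest library. Its log2 fold change was -3.07 ± 0.35 (adjusted p = 5.45e-05), and -2.80 ± 0.32 without vehicle replicate 4. A gene on the other strand, Gm11571, overlaps 249 bases of its exons and had 0 to 2 counts in the MC903 libraries and 2 to 14 in the vehicle libraries. Krt36 lies beside Krt32 in the type I cluster, with Krt35 between them. Per kilobase, Krt36 had 49.2 to 111 times the count of Krt32 in the MC903 libraries and 0.0604 to 0.0970 times in the vehicle libraries.

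The cortex keratins of type I were low in both groups. Krt33a was at 0.540, 0.417, 0.994 and 0.162 CPM in the MC903 libraries, against 2.83, 5.30, 1.83 and 16.6 CPM in the vehicle libraries. All vehicle values were higher, with the largest in vehicle replicate 4, and its log2 fold change was -3.58 ± 0.74 (adjusted p = 0.00274) or -2.57 ± 0.49 without that library. Krt31 also fell (-3.55 ± 0.92, adjusted p = 0.00975; -2.48 without vehicle replicate 4), at 0.271 ± 0.270 CPM in MC903 skin and 3.50 ± 3.79 CPM in vehicle skin (SD, n = 4 each). Krt34 was not called. It had 0.877, 0.833, 1.46 and 0.162 CPM in the MC903 libraries, against 1.06, 0.922, 0.628 and 8.18 CPM in the vehicle libraries, and its log2 fold change of -1.66 ± 0.82 (adjusted p = 0.127) was -0.03 ± 0.51 without vehicle replicate 4. Apart from that library, its groups covered much the same range. Krt33b of the cortex and Krt35 of the matrix and cuticle had too few counts for the filter; without it both fell (-3.21 ± 0.79 and -2.39 ± 0.62).

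Among type II hair keratins, the cortex keratins Krt81 (-3.28 ± 0.83, adjusted p = 0.00866) and Krt83 (-2.79 ± 0.73, adjusted p = 0.0107) fell, by less without vehicle replicate 4 (-2.06 and -1.75, both called). Krt81 was at 0.337, 0.333, 0.331 and 0 CPM in the MC903 libraries, against 1.18, 1.08, 1.03 and 6.93 CPM in the vehicle libraries. Each group held 3 libraries at nearly the same level, and replicate 4 stood apart from them, downwards with MC903 and upwards with vehicle. Krt86 of the cortex, below the filter, fell when tested without it (-2.04 ± 0.67, adjusted p = 0.0306) but was not called when vehicle replicate 4 was also left out (-0.74, adjusted p = 0.402). Krt82, a cuticle keratin, had 13 counts over the MC903 libraries and 15 over the vehicle libraries and was not called (-0.04 ± 0.78 without the filter). Krt31, Krt81, Krt83, Krt33b, Krt34 and Krt86 share 22.1% to 43.3% of their 50-base windows with other genes, so reads may be split among them.

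The keratins of the inner root sheath were lower in MC903 skin, but the groups overlapped in all 6. Krt25 (-2.70 ± 0.70, adjusted p = 0.0103), Krt27 (-2.10 ± 0.65, adjusted p = 0.0232), Krt28 (-1.76 ± 0.59, adjusted p = 0.0320), Krt71 (-2.50 ± 0.71, adjusted p = 0.0150) and Krt73 (-1.82 ± 0.50, adjusted p = 0.0128) fell. Krt72, of the sheath cuticle like Krt73, had 5 counts over the MC903 libraries and 29 over the vehicle libraries and was not called without the filter (-2.28 ± 1.03, adjusted p = 0.120). Krt71, the type II partner of the sheath's type I keratins, was at 2.23, 3.08, 5.96 and 0.406 CPM in the MC903 libraries, against 4.95, 13.7, 7.998 and 40.7 CPM in the vehicle libraries. MC903 replicate 3 lay above vehicle replicate 1, and the other MC903 values lay below all vehicle values.

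Of the 5 calls, those of Krt27 and Krt28 depended on single libraries. Krt27 missed the threshold on leaving out vehicle replicate 4 (-1.15, adjusted p = 0.0757), MC903 replicate 1 (-1.98, adjusted p = 0.0594) or MC903 replicate 4 (-1.87, adjusted p = 0.0526). Krt28 missed the threshold when vehicle replicate 2 was left out (-1.44, adjusted p = 0.0850), and likewise for vehicle replicate 4 (-1.52, adjusted p = 0.0742), MC903 replicate 2 (-1.49, adjusted p = 0.0805) or MC903 replicate 4 (-1.57, adjusted p = 0.0695). In each case the fold change kept its sign. Without vehicle replicate 4, Krt25 (-1.70), Krt71 (-1.57) and Krt73 (-1.45) still fell, by less than with it. The 6 genes summed to 8.30, 9.17, 17.0 and 2.84 CPM in the MC903 libraries, against 13.0, 44.5, 23.4 and 114 CPM in the vehicle libraries.

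The 57 keratin-associated proteins were classed by the amino acid composition of their translated transcripts. At least 35% glycine plus tyrosine put 19 in the glycine-tyrosine class, 4 of which also reached 30% cysteine. Of the rest, at least 30% cysteine made 16 ultra-high-sulfur, and Krtap19-9a, with no coding sequence in the annotation used, was not classed. The remaining 21 were put in the high-sulfur class with no minimum of cysteine, which ran from 4% (Krtap15) to 29.8% (Krtap2-4). Of the 57, 23 were tested and 20 fell, 0 rose and 3 were not called, where 20.2% of all genes tested fell and 21.3% rose. Without the filter 45 fell and 1 rose (12.3% of genes each way). Without vehicle replicate 4, 16 fell and 1 rose of 24 tested (18.2% and 18.8% of all genes tested). When the filter was left out too, 30 fell and 2 rose (11.6% and 11.3%). How reads with several possible origins were counted was not given in the sources used here, and 20 of the 76 members share over 20% of their 50-base windows with another gene, so levels of such single genes are uncertain.

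Among the high-sulfur class, 9 of 11 tested fell (20.2% of all genes tested), with log2 fold changes of -4.25 (Krtap15) to -2.23 (Krtap3-2). Without the filter 15 of 21 fell, against 12.3% of all genes. Without vehicle replicate 4 these 9 still fell (18.2% of all genes tested), from -2.95 (Krtap15) to -1.77 (Krtap9-3). The Krtap3 genes, which lie side by side on chromosome 11, did not move together. Krtap3-2 (chr11:99555823-99556853) had 9.72, 19.6, 19.7 and 6.33 CPM in the MC903 libraries, against 78.5, 38.3, 62.2 and 81.0 CPM in the vehicle libraries. Its groups stood apart, and it fell by 2.23 ± 0.35 on the log2 scale (adjusted p = 0.000478), or by 2.11 ± 0.36 without vehicle replicate 4. Krtap3-1 (chr11:99566027-99566630) had 28.0, 36.5, 41.2 and 14.9 CPM in the MC903 libraries, against 12.3, 6.69, 4.23 and 52.2 CPM in the vehicle libraries.

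All 4 MC903 values of Krtap3-1 exceeded vehicle replicates 1, 2 and 3, and vehicle replicate 4 exceeded all of them. It was not called with all libraries (0.68 ± 0.64, adjusted p = 0.417) and was called higher without vehicle replicate 4 (1.96 ± 0.39, adjusted p = 0.00284). Per kilobase, the count of Krtap3-1 was 4.92, 3.18, 3.57 and 4.03 times that of Krtap3-2 in the MC903 libraries, and 0.266, 0.298, 0.116 and 1.10 times in the vehicle libraries. This ratio within a library does not depend on the scaling, and it did not overlap between the groups. The pair was chosen after its values were seen and was not tested. Krtap3-1 shares 8.83% of its 50-base windows with other genes and Krtap3-2 shares 28.9%, mainly with Krtap3-3. Krtap3-3 was not called (-0.73 ± 0.51, adjusted p = 0.273; 0.20 ± 0.28 without vehicle replicate 4).

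Krtap15 (chr16:88820215-88829844) is in the high-sulfur class only as part of the remainder, with 4% cysteine and 24% glycine plus tyrosine. It was at 3.44, 1.00, 1.46 and 0.487 CPM in the MC903 libraries, against 20.3, 6.84, 10.7 and 87.2 CPM in the vehicle libraries. Its lowest vehicle value lay above its highest MC903 value. Its span overlaps that of Krtap14 on the other strand, with no shared exon bases. Krtap13 was the exception in direction. It had 9, 7, 5 and 4 counts in the MC903 libraries and 0 in every vehicle library. The exact 95% interval of the ratio, counting error only, begins at 7.36-fold higher; the 25 counts against a floor of 3 over the whole vehicle group, not per library, make it at least 9.76-fold higher with the error of the 25 left out. It was called higher without the filter (adjusted p = 0.000356). It shares 24.9% of its windows with 2310057N15Rik, which had 3 counts in MC903 replicate 4 and 0 in the other libraries.

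In the glycine-tyrosine class, 9 of 10 tested members fell (20.2% of all genes tested), from -4.14 (Krtap6-1) to -2.66 (Krtap19-5). Without the filter 16 of 19 fell, against 12.3% of all genes. Without vehicle replicate 4, Krtap6-1 was at -2.92 and Krtap19-5 lost its call (-0.98, adjusted p = 0.0800). Krtap19-3 was at 1.82, 1.08, 0.398 and 0.162 CPM in the MC903 libraries, against 6.60, 2.23, 4.23 and 42.3 CPM in the vehicle libraries. The groups did not overlap, and its log2 fold change was -3.97, or -2.31 without vehicle replicate 4. Krtap6-2 had 3.17, 2.75, 2.98 and 0.811 CPM in the MC903 libraries, against 8.72, 1.69, 4.00 and 48.2 CPM in the vehicle libraries. Vehicle replicate 2 lay below 3 of the MC903 values. Its call (-2.67 ± 0.87, adjusted p = 0.0297) was lost without vehicle replicate 4 (-0.99, adjusted p = 0.147) and, at a similar size, without MC903 replicate 1, 2, 3 or 4 (-2.83, -2.73, -2.78 and -2.39, adjusted p = 0.0546, 0.0619, 0.0607 and 0.0644).

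Krtap21-1, the tested member of that class that did not pass, had 5.20, 7.75, 4.31 and 2.11 CPM in the MC903 libraries, against 8.37, 2.15, 3.20 and 47.0 CPM in the vehicle libraries. The groups overlapped widely. Its log2 fold change was -1.65 ± 0.82 (adjusted p = 0.127), and 0.06 ± 0.47 without vehicle replicate 4 (adjusted p = 0.930). Without that library, 5 of 10 tested members of the class fell, against 18.2% of all genes tested. The summed level of the class was 22.6, 21.4, 15.2 and 5.19 CPM in the MC903 libraries, against 66.4, 24.4, 29.8 and 341 CPM in the vehicle libraries.

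The 16 ultra-high-sulfur genes summed to 1.35, 1.08, 3.11 and 0.893 CPM in the MC903 libraries, against 9.31, 9.22, 7.88 and 90.8 CPM in the vehicle libraries. The summed groups did not overlap. Only Krtap4-2 and Krtap4-7 were tested and both fell (-4.13 ± 0.95, adjusted p = 0.00506, and -4.03 ± 0.95, adjusted p = 0.00604), by less without vehicle replicate 4 (-2.62 and -2.42, both called). Krtap4-7 was at 0.540, 0.250, 0.199 and 0.0811 CPM in the MC903 libraries, against 1.65, 1.69, 1.20 and 13.9 CPM in the vehicle libraries. Without the filter 14 of 16 fell (12.3% of all genes), and 8 of 16 when vehicle replicate 4 was left out as well (11.6%). Krtap9-1 had 8 counts over the MC903 libraries and 276 over the vehicle libraries, with 36.6% of its windows shared.

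**Figure D3:**
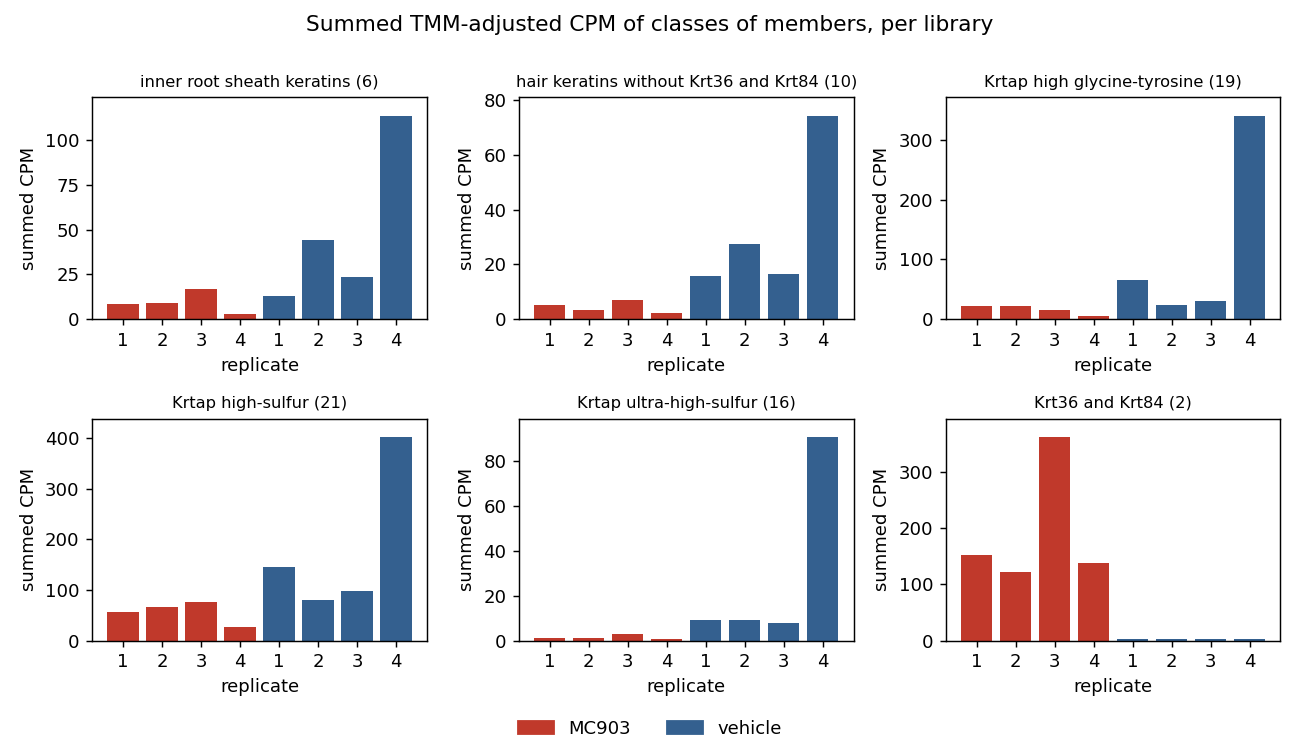
Summed TMM-adjusted CPM of 5 classes and of Krt36 with Krt84 (number of genes in brackets) in every library, MC903 bars left and vehicle bars right; each panel has its own scale from 0, and Krt75 and Krtap19-9a are not drawn. Vehicle replicate 4 is the tallest bar in the panels of the 5 classes, and in that of Krt36 and Krt84 MC903 replicate 3 is tallest at 363 CPM and the vehicle libraries stand at 2.46 to 3.06 CPM.

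The classes did not keep one proportion among libraries. Glycine-tyrosine Krtap counts were 2.72, 2.34, 0.898 and 1.83 times the inner root sheath keratin counts in the MC903 libraries, and 5.10, 0.548, 1.27 and 2.99 times in the vehicle libraries. The groups overlapped, with the highest and the lowest ratio both among vehicle libraries. The summed level of all 76 members was 406 ± 163 CPM in MC903 skin and 426 ± 415 CPM in vehicle skin (SD, n = 4 each), with vehicle replicate 4 at 1047 CPM. Without that library the vehicle sum was 218 ± 39.5 CPM (SD, n = 3), and the MC903 mean was the higher. Per kilobase of gene length, the highest mean levels in MC903 skin were those of Krt36 (57.4 CPM per kb), Krtap3-1 (49.9), Krt84 (38.2), Krt75 (38.1) and Krtap3-2 (13.4). In vehicle skin they were those of Krtap3-2 (63.0 CPM per kb), Krtap3-1 (31.2), Krtap7-1 (31.0), Krtap15 (29.7) and Krtap22-2 (27.9). The means of Krt36, Krtap3-1, Krt84 and Krt75 in MC903 skin lie within their spread of each other. The vehicle SDs of Krtap3-1, Krtap7-1 and Krtap15 exceed their means. The order of the means within each of these sets is therefore not resolved by the spread between libraries. Within each MC903 library, however, Krt36 stood above Krt84 and above Krt75 per kilobase.

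The members varied more among libraries than most genes did. The median SD of log2 CPM was 0.795 in the MC903 group and 1.497 in the vehicle group over the tested members, against 0.267 and 0.207 over all genes tested. For genes at a level like that of each member, within 0.5 of its mean log2 CPM, the median vehicle SD was 0.159 to 0.348. Krt84 (0.302), Krt36 (0.330), Krt75 (0.477), Krt32 (0.479) and Krtap3-2 (0.497) had the smallest vehicle SD of the tested members. Without vehicle replicate 4, the log2 fold changes of these 5 were 5.55, 6.996, 3.36, -2.80 and -2.11.

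**Figure D4:**
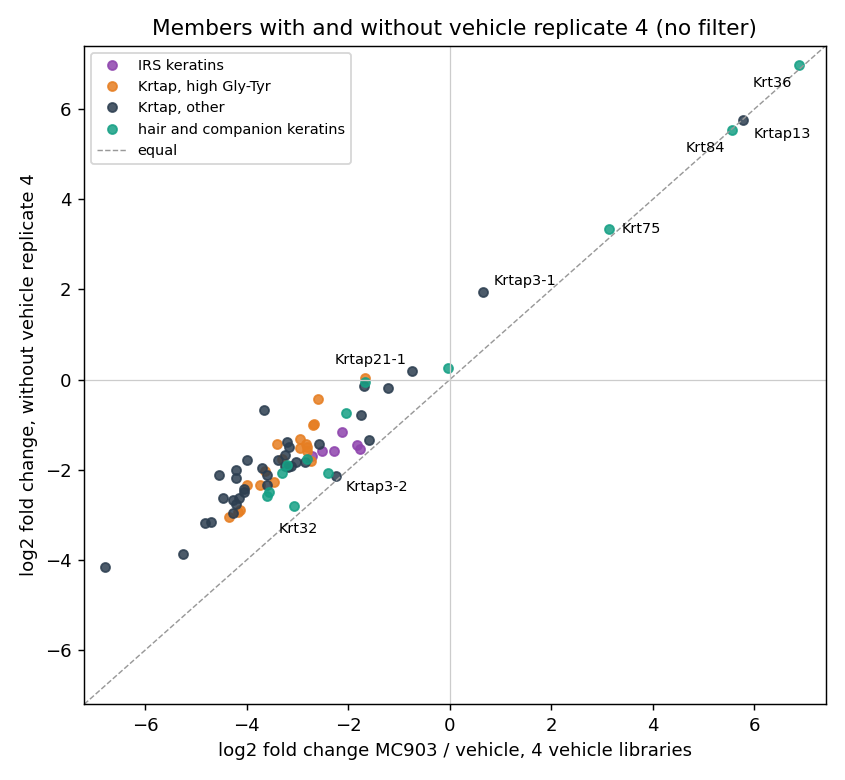
Log2 fold change (MC903 over vehicle) of the members, tested without a filter, with all libraries (horizontal axis) and without vehicle replicate 4 (vertical axis; Krtap9-5, with no count left, is not drawn); IRS is the inner root sheath. Krt36, Krt84, Krt75, Krt32 and Krtap3-2 lie near the line of equal values, and most keratin-associated proteins lie above it, closer to 0.

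The members lie in a few clusters, and the counts below stand against 20.2% of all genes tested that fell and 21.3% that rose. Chromosome 11 holds 33, of which 11 fell and 1 rose among 15 tested, and chromosome 16 holds 25, all keratin-associated proteins, of which 15 fell among 16 tested. Chromosome 15, with the type II keratins, holds 9, of which 4 fell and 2 rose among 6 tested. Chromosomes 7, 1 and 10 hold 5, 2 and 2, none of them tested. Of these, 5, 1 and 2 fell without the filter, where 12.3% of all genes fell.

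Other genes of the follicle did not share one direction. Of 12 other inner root sheath genes, 9 were tested, and 7 rose and 1 fell, where 21.3% and 20.2% of all genes tested did; several of them also serve the epidermis. Tchh, trichohyalin, which hardens the inner root sheath and medulla, was at 357, 822, 872 and 797 CPM in the MC903 libraries, against 15.6, 26.4, 15.3 and 74.3 CPM in the vehicle libraries (4.44 ± 0.54; 5.22 without vehicle replicate 4). Tchhl1 (2.03 ± 0.58; 3.17 without vehicle replicate 4) and the transglutaminase Tgm3 (2.07 ± 0.20) rose as well, and Gata3, a sheath transcription factor, fell (-0.44 ± 0.14), a call lost without vehicle replicate 4 at a similar size (-0.39, adjusted p = 0.0828). Of 16 shaft genes, 14 were tested, 2 rose and 4 fell. Hoxc13, a regulator of hair keratin genes, rose (2.11 ± 0.30) and was highest in MC903 replicate 3. So were 34 of the 76 members, among them Krt36 and Krt84, which rose, and Krt32 and Krt71, which fell. Gprc5d, a receptor of the hair cortex (-3.87 ± 0.79; -2.76 without vehicle replicate 4), and S100a3, a cuticle protein (-2.17 ± 0.43), fell, and Foxn1, a regulator of shaft keratins, was not called (0.19 ± 0.21).

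The same shares of all genes tested, 21.3% that rose and 20.2% that fell, apply to the lists that follow. Of 15 genes of the hair matrix and its signals, 13 were tested, 2 rose and 6 fell. Wnt10a (1.02 ± 0.17) and Bmp2 (0.75 ± 0.25) rose, and Wnt10b (-2.31 ± 0.42) and Fgf18 (-1.41 ± 0.22) were among the 6 that fell. Gli1, a target of hedgehog signalling and also one of the 6, lost its call without vehicle replicate 4 (-0.91, adjusted p = 0.0542). Of 12 genes of the outer root sheath and bulge, all tested, 2 rose and 5 fell. Krt17 (2.2 ± 0.22) and Krt14 (1.87 ± 0.19) rose, and the bulge keratin Krt15 (-2.44 ± 0.31) and the stem cell receptor Lgr6 (-1.76 ± 0.12) were among those that fell. Krt14 and Krt5 are also in the epidermal list below. Of 8 melanocyte markers 7 were tested, and 1 rose. The list summed to 70.4 to 132 CPM in the MC903 libraries and 66.0 to 95.1 CPM in the vehicle libraries. Of 12 sebaceous markers 8 fell. Their sum was 5034 to 9246 CPM in the MC903 libraries and 7663 to 14350 CPM in the vehicle libraries, highest in vehicle replicate 4, where the members were also highest. Of 12 skeletal muscle markers 5 fell, with sums of 1909 to 6395 CPM in the MC903 libraries and 3520 to 10640 CPM in the vehicle libraries. The lowest vehicle sum was that of replicate 4. Without that library 10 fell, against 18.2% of all genes tested. Of 10 papilla markers 8 were tested, 4 rose and 2 fell (sums 242 to 270 CPM in MC903 and 232 to 278 CPM in vehicle libraries). Of 8 epidermal markers 2 rose, Krt14 and Krt1 (sums 12850 to 14290 CPM in MC903 and 6725 to 7707 CPM in vehicle libraries). Of the 11 salivary markers 6 were tested and 5 fell (Smr3a, Bpifa2, Car6, Amy1 and Dcpp1), each far above the other libraries in vehicle replicate 2, and Smgc was at 0 in every library. The part of these cell types in the members' differences was not tested.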

How the data were processed

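Total RNA of ear skin was treated with DNase and depleted of ribosomal RNA, and random-primed libraries were read as single 50-base reads, per the labels' protocols. The authors deposited whole-number counts per Ensembl gene with CPM and RPKM beside them; the deposited CPM and RPKM matched the counts to within 2.33e-10 and 1.75e-10 and were used only for this check. STAR 2.0.4b, Subread, featureCounts 1.4.5 and the build mm10 are named in the submitters' processing notes. The handling of strand and of multiply mapped reads is not given in the sources used here. Symbols named 40254 of 41388 identifiers. Members and lists were chosen with earlier results of these data known.

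Genes passing filterByExpr by group were scaled by TMM. The test was edgeR's quasi-likelihood F-test (version 4.0.16, R 4.3.3) with a term for group alone, Benjamini-Hochberg adjustment over all genes tested and a threshold of 0.05; a fold change's SE is its size over the root of F. P-values set the difference between the groups against the spread between these samples. The fit was tested on simulated data with 200 changed genes. These were drawn above a minimum vehicle level, and no simulated library stood apart as vehicle replicate 4 does here, so that case is not covered. Named genes are all keratin members, the 3 Krtap of highest mean CPM in each class, the 3 largest rises and 3 largest falls called, and any listed context gene; other Krtap were named after their values were seen. Krtap classes came from GENCODE M21 coding sequence, in place of the RefSeq protein table first planned. Alternatives used DESeq2 1.42.0 and limma 3.58.1. Intervals and floors cover counting error only. Another Krtap gene in the symbol table, Krtap10-10, was not analysed here.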

Additional observations from a re-analysis of the deposited data

Results flagged for a closer look

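In groups of 4 libraries, a gap to the nearest library of more than Dixon's 95% critical share of the group's range was met 17 times in 60 groups of the 30 named members. For normal values chance flags about 1 in 20 groups. The rule was applied to unlogged CPM, often of few counts, where that share need not hold. The 3 Krtap of highest mean CPM in each class were named by a mean that includes vehicle replicate 4, which favours flags there. Of the 17 flags, 12 were vehicle replicate 4 standing above the other vehicle libraries. For keratins this was Krt34 (0.943 of the range), Krt81 (0.975) and Krt86 (0.963). Among keratin-associated proteins it was Krtap21-1 (0.861), Krtap6-2 (0.849), Krtap19-3 (0.891), Krtap3-1 (0.833), Krtap15 (0.832), Krtap4-7 (0.961), Krtap9-1 (0.934), Krtap4-2 (0.907) and Krtap26-1 (0.844).

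MC903 replicate 3 stood above the other MC903 libraries in Krt36 (0.836), with 178 CPM and the next library at 81.0 CPM, in Krt84 (0.858), with 185 CPM and the next at 76.9 CPM, and in Krt72 (1), where it was the only MC903 library with a count. MC903 replicate 4 stood below the others in Krt81 (0.982) and Krtap6-1 (0.864), with no count of either gene. These flags share libraries and are not independent. Their cause was not tested.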

How the results depend on the processing

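The 24 named members that were tested kept their direction and their side of the threshold in 371 of 396 refits, lost the call in 21 and gained it in 3. The sign was reversed in 1, Krtap21-1 without vehicle replicate 4 (0.0635, adjusted p = 0.930, not called in either fit; -2.02 at its lowest as each library was left out). Krt36 ranged from 6.40 to 7.04, Krt84 from 5.06 to 5.75, Krt75 from 2.99 to 3.36, Krt32 from -3.43 to -2.80 and Krtap3-2 from -2.45 to -1.99, called throughout. Krt27, Krt28 and Krtap6-2 were lost with limma-voom (adjusted p = 0.0989, 0.0865 and 0.178), Krt27, Krt71 and Krtap6-2 with robust dispersion (0.0578, 0.0515 and 0.0959), and Krt34 and Krtap21-1 were gained with library sizes alone (0.0371 and 0.0277).

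The filter decided the counts: 58 members fell without it (12.3% of all genes), against 30 with it (20.2%). A stricter filter (minimum count 30) gave 11, and the share of all genes that fell with it is not given here. Over all genes, 6021 were called in either direction with the stricter filter, against 6682. Without the filter and with the stricter one, 45 and 6 keratin-associated proteins fell, against 20, and 8 and 2 hair keratins, against 5. The inner root sheath count of 5 was 3 with the stricter filter, limma-voom or robust dispersion, and 3 to 5 as each library was left out, with 3 without vehicle replicate 4 or MC903 replicate 4. Members that rose numbered 5 without the filter and vehicle replicate 4, a setting added after seeing the data, against 3. Leaving out each library gave 24 to 36 members that fell. Library sizes alone moved the share of calls over all genes that were higher to 44.0% and upper quartile factors to 43.1%, against 51.2%, with median shifts of -0.08 and -0.07. No sign of pairing by replicate number was seen: same-numbered deviations correlated at 0.0568, -0.139, -0.118 and -0.204, and no MC903 library correlated best with its own number. Such correlations of deviations from group means of so few libraries cannot exclude a pairing. DESeq2 gave Krtap4-7 no adjusted p, and it was left out there. With the replicate block, 24 members and 3 inner root sheath keratins fell. At 3 counts for 0.178 to 0.244 CPM, depth limits the 39 members below the filter. The cause of the changes was not tested beyond these settings.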
